A study of Mus musculus with 16 samples.

Results

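Receptors for glutamate and GABA were examined in oligodendrocytes sorted from mouse brain. The set is 33 named receptor genes out of the 32207 genes in the count table, found by matching Ensembl gene identifiers to mouse symbols. It holds 4 AMPA subunits, 5 kainate subunits, 1 delta subunit, 7 NMDA subunits, 6 metabotropic glutamate receptors, 8 GABA-A subunits and 2 GABA-B subunits. Enough reads for testing were present for 30 of the 33, among 16339 genes tested in all.

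RNA sequencing was done on 16 libraries from OF-1 mice, an outbred strain, at postnatal day 16. Sex and exposure give 4 groups of 4 libraries: control and BPA males, and control and BPA females. The exposed pups received bisphenol A (BPA), a building block of polycarbonate plastics with estrogenic activity, through their mothers' drinking water from gestational day 7 and on through lactation, at an estimated 40 µg/kg/day per the study's text. The other pups are labelled only as controls. All libraries came from dissociated brain cells captured on magnetic beads by the O4 antigen, a surface lipid of late precursors and oligodendrocytes. Neither litter nor batch is labelled, so p-values measure only the spread between these libraries, and littermates within a group cannot be told apart from unrelated mice.

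Glutamate and GABA are the main excitatory and inhibitory transmitters of the brain. AMPA, kainate and NMDA receptors are glutamate-gated cation channels built from 4 subunits, metabotropic receptors signal through G proteins, GABA-A receptors are chloride channels, and GABA-B receptors are G protein-coupled pairs of one subunit of each kind. Oligodendrocyte precursors receive synapses from neurons and carry AMPA and GABA-A receptors, most of which are lost as the cells mature into myelinating oligodendrocytes. Astrocytes carry their own receptors and clear both transmitters.

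Total counts ranged from 23603816 to 42575326 per library, so that 3 counts, the upper limit that a count of 0 allows, stood for between 0.0707 and 0.127 CPM, the unit of counts scaled by library size used below. This limit covers counting error only. Myelin genes had the highest sum of the marker lists in every library: the summed level of 12 markers of myelinating oligodendrocytes was between 114600 and 161100 CPM. The 15 precursor markers summed to between 2066 and 4136 CPM, and the 16 astrocyte markers to between 914 and 6536 CPM. The 13 neuron markers summed to between 17.6 and 29.6 CPM, with the vesicular glutamate transporters Slc17a7 and Slc17a6 too low to be tested and Slc17a6 at 0 in 2 libraries. The highest astrocyte sum belonged to 1 library, male BPA 2, while the other 15 reached at most 2508 CPM. Counts and medians that move by over 1.5 times without male BPA 2 are therefore given with and without it. All p-values given are adjusted by Benjamini-Hochberg over the 16339 genes in limma-voom fits, and a gene was called when its adjusted p was under 0.05.

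**Figure D1:**
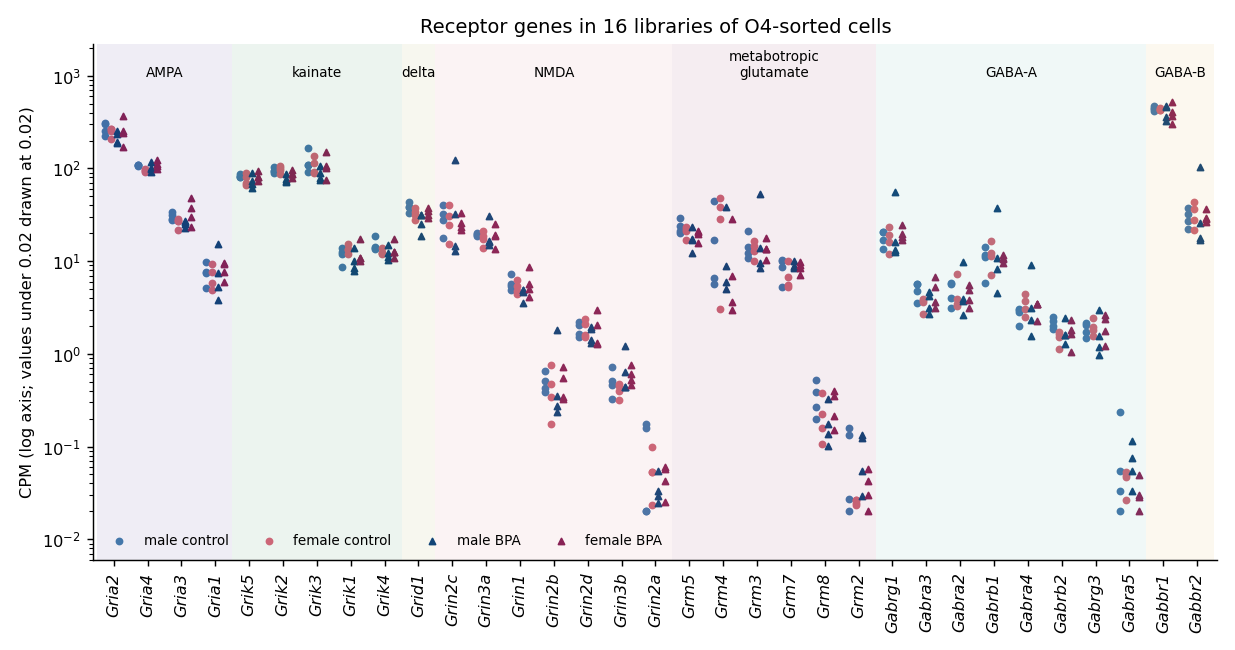
Level of each of the 33 receptor genes (CPM, log axis) in each of the 16 libraries, with circles for control and triangles for BPA, by receptor class and, within a class, in order of the level per kilobase. Gabbr1 and Gria2 stand highest, Grin2a, Grm2 and Gabra5 lie near the limit of detection, and the highest points of Grin2c, Grm3, Gabrg1, Gabrb1 and Gabbr2 all belong to male BPA 2.

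Levels between genes were compared only in the authors' counts normalised and divided by the median length of a gene's transcripts, given here as normalised counts per kb. These depend on the transcripts annotated: a gene with many short transcripts receives a short length and a high value. By this measure the GABA-B subunit Gabbr1, which binds GABA, was the most abundant member in the 8 control libraries, at 18280 ± 704 (SD, n = 8), above 98.9% of all genes tested. Its partner Gabbr2, which couples the pair to G proteins, stood at 816 ± 203 and made up 4.27% ± 1.0 of the class. In CPM, Gabbr1 ranged from 302 to 521 with a median of 434 over the 16 libraries, a 1.72-fold range, with the 8 controls between 413 and 469 and the 8 BPA libraries at both ends. Gabbr2 ranged from 17 to 104 with a median of 28.3. The 2 subunits of the obligate pair thus differed widely in transcript level in every control library.

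Among the AMPA subunits, Gria2, whose edited form makes the channel impermeable to calcium, was the main one, with 2493 ± 323 normalised counts per kb and 71.9% ± 2.3 of the class in controls. Gria4 followed with 657 ± 47.4, Gria3 with 266 ± 34.6 and Gria1 with 45.9 ± 11.2. The control ranges of these 4 genes did not overlap. Over all 16 libraries Gria2 kept between 62.8% and 74.3% of the class.

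The kainate class was led by Grik5, an auxiliary subunit that forms no channel by itself, at 3108 ± 315 normalised counts per kb, or 61.6% ± 2.5 of the class. The channel-forming subunit Grik2 stood at 1259 ± 95 and Grik3 at 435 ± 103, while Grik1 (134 ± 20.3) and Grik4 (102 ± 15.7) had overlapping ranges. In CPM the order of the first 3 was reversed, with control means of 114 for Grik3, 96.1 for Grik2 and 79.9 for Grik5. The lead of Grik5 thus rests on the transcript length assigned to it. Grid1, a delta subunit that acts as a synaptic organiser, was the fourth member overall per kb at 1472 ± 207. That rank also rests on the length: its control mean was 35.5 CPM, below the 101 CPM of Gria4, which stood lower per kb.

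Summed over the class, NMDA subunits stood lower in controls, at 419 ± 74.4 normalised counts per kb. The AMPA sum was 3462 ± 368 and the kainate sum 5038 ± 362. Single NMDA members did not all stand lower. The leading NMDA subunit was Grin2c, at 213 ± 68.9 normalised counts per kb, followed by Grin3a at 112 ± 13.1, whose ranges overlapped. Both means lay above those of Grik4 (102) and Gria1 (45.9). In CPM the control mean of Grin2c was 28.6, beside 28.3 for Gria3. Grin1, the subunit that every NMDA receptor requires, stood at only 49.3 ± 8.21. Grin2b, Grin2d and Grin3b lay between 9.52 and 22.7 on average, each overlapping its neighbour. Grin2a was not tested: it had 30 reads over the 16 libraries and 0 in 2 of them.

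The metabotropic receptors Grm5, Grm4 and Grm3 stood at 279 ± 44.9, 262 ± 202 and 158 ± 40.2 normalised counts per kb, with overlapping ranges, and Grm7 at 84.5 ± 24.6 overlapped Grm3. Grm8 was near the limit at 3.37 ± 1.67, and Grm2, with 29 reads in all, was not tested. Among GABA-A subunits Gabrg1 led with 195 ± 42, above all others. Gabra3, Gabra2, Gabrb1, Gabra4, Gabrb2 and Gabrg3 followed in that order between 80.4 and 37.6 on average, each overlapping the next, and Gabra5 (30 reads) was not tested. In CPM Gabrb1 stood above Gabra3, with control means of 11.2 and 4.21.

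To see which receptors move with the cell content of the sort, each gene's log2 CPM was fitted on 2 scores at once, within the 4 groups: the mean log2 CPM of the 16 astrocyte markers and that of the 15 precursor markers. No receptor gene is in either list. A slope of 1 means that the receptor's level doubles when the score rises by 1. A slope describes how libraries differ and does not show which cell a transcript came from. In bulk RNA, fewer cells of a type and less RNA per cell cannot be told apart.

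Of the 30 receptor genes tested, 13 rose with the astrocyte score, and none fell with it. Over all genes tested, 17.3% were called on this slope and 12.3% were called with a slope above 0. The median slope of the receptor genes was 0.17, beside 0.00 for all genes. By class, 5 of 7 GABA-A subunits, 4 of 6 NMDA subunits and Gabbr2 of the 2 GABA-B subunits were called, but only Gria1 of the 4 AMPA subunits, Grik5 of the 5 kainate subunits and Grm3 of the 5 metabotropic receptors tested, and not Grid1.

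Grin2c, the NMDA subunit best known from cerebellar granule cells and from astrocytes, had the largest slope called, 1.18 ± 0.04 (SE, adjusted p = 6.02e-11). Its levels were 32.1, 40.4, 17.6 and 27.8 CPM in male controls and 31.0, 24.7, 15.2 and 39.8 CPM in female controls. In male BPA they were 31.9, 123, 14.5 and 13.0 CPM, and in female BPA 23.3, 21.9, 32.9 and 25.8 CPM. Male BPA 2 stood far above every other library, and the groups overlapped otherwise. Without it the slope was 1.11 ± 0.08 (adjusted p = 1.7e-06).

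Gabbr2 had a slope of 0.96 ± 0.05 (adjusted p = 3e-09) and Gabrb1, a beta subunit of the GABA-A channel, 1.003 ± 0.065 (adjusted p = 2.13e-08). Gabrb1 ranged from 5.81 to 14.1 CPM in male controls, from 7.12 to 16.5 CPM in female controls and from 9.45 to 11.6 CPM in female BPA. In male BPA it stood at 10.8, 37.8, 8.31 and 4.50 CPM, so that this group held both the highest and the lowest library. Grm3, the metabotropic receptor prominent in astrocytes, had a slope of 0.95 ± 0.06, Gabrg1 0.82 ± 0.05 and Gabra4 0.81 ± 0.07. Grin2b had a slope of 1.05 ± 0.14 at very low levels, a median of 0.41 CPM, and lost its call without male BPA 2 (highest adjusted p over the libraries left out, 0.125).

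Without male BPA 2, 8 receptor genes were called, all with slopes above 0, beside 3.31% of all genes: Grin2c, Gabbr2, Gabrg1, Gabrb1, Grm3, Gria1, Gabra2 and Gabra4. Their slopes then lay between 0.66 ± 0.10 for Grm3 and 1.11 ± 0.08 for Grin2c. Grin3a, Gabrg3, Grin2b, Grin3b and Grik5 were no longer called.

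**Figure D2:**
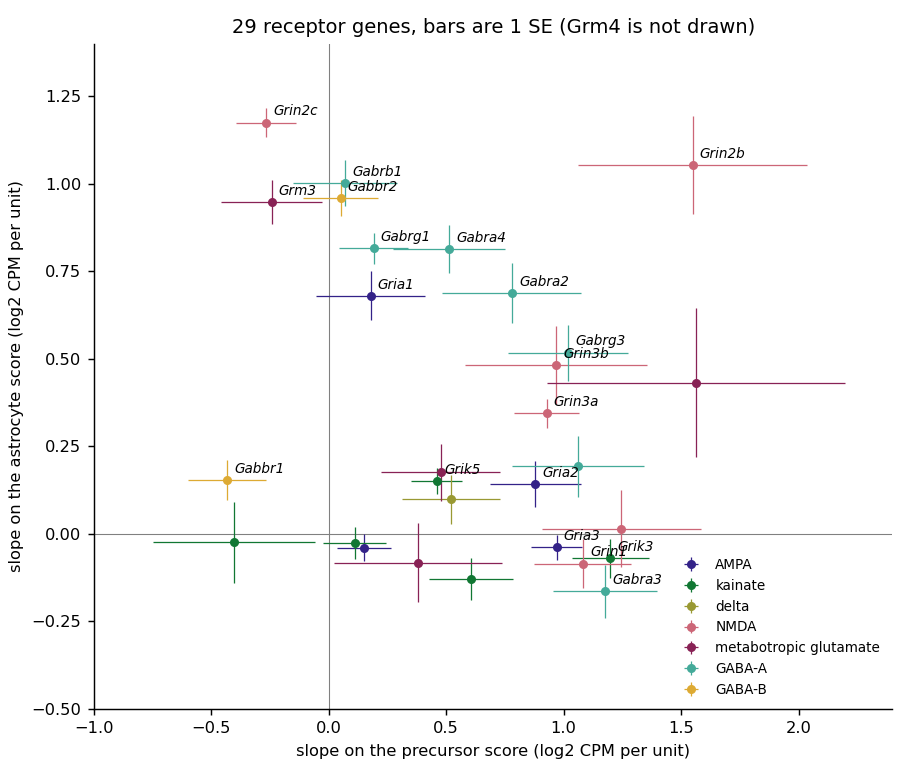
Slope of each receptor gene on the astrocyte score (vertical) against its slope on the precursor score (horizontal), in log2 CPM per unit of score, with bars of 1 SE; genes called on either slope and Gabbr1 are named, and Grm4 is not drawn. Grin2c, Gabrb1, Gabbr2 and Grm3 lie high and near or below 0 on the horizontal axis, Gria3, Grik3, Grin1 and Gabra3 lie to the right near 0 on the vertical axis, and Gabra2, Gabrg3, Grin3a and Grin2b lie above 0 on both.

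Position on the chromosome was not used to choose the genes or to fit the slopes. Gabrg1, Gabra2, Gabra4 and Gabrb1 lie next to each other on chromosome 5, with only Cox7b2 between them in the RefSeq annotation of GRCm38.p6. All 4 receptor genes of this run rose with the astrocyte score, with and without male BPA 2. Cox7b2 had between 0 and 11 reads per library and was not tested. The tested GABA-A subunits that lie elsewhere were not called without male BPA 2. Gabra3 on the X chromosome had a slope of -0.16 ± 0.08 and Gabrb2 on chromosome 11 one of 0.19 ± 0.09, neither called. Gabrg3 on chromosome 7 (0.52 ± 0.08) was called only with male BPA 2. The trait is not particular to this run: Grin2c and Gria1 on chromosome 11, Gabbr2 on chromosome 4, and Grm3, outside the run on chromosome 5, were also called with and without male BPA 2.

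RefSeq promoter windows, 250 bases before to 50 after a gene's start in GRCm38.p6, were at hand for 24 of the 33 genes. The deposited counts were made on mm39, so these positions belong to GRCm38.p6 alone. They are shown for the neighbours Gabra4 and Gabrb1, which moved together, for Grin2c, the gene with the largest astrocyte slope called, and for Grik3, the gene with the largest precursor slope called. Each reads 5′ to 3′ on the gene's own strand, with GC boxes (GGGCGG, searched on both strands, overlapping matches included) in capitals.
Gabra4, chr5:71658259-71658558 (- strand): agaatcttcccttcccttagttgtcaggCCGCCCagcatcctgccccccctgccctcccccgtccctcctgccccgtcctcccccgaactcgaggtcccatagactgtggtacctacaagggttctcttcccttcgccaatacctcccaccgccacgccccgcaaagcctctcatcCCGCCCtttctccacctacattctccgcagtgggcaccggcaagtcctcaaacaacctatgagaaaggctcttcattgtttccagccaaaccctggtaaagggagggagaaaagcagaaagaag
Gabrb1, chr5:71657671-71657970 (+ strand): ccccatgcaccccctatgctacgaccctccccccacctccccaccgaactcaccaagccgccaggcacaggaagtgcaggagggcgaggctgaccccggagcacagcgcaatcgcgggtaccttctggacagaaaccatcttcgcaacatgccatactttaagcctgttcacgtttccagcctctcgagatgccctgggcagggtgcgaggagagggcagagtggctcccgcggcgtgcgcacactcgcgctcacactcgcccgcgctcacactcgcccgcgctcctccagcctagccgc
Grin2c, chr11:115267194-115267493 (- strand): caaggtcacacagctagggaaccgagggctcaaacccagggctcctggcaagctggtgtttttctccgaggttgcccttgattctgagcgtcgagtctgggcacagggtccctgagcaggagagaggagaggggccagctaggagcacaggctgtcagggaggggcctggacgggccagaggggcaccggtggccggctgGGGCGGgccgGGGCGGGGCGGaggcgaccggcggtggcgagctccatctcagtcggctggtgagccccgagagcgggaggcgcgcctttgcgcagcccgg
Grik3, chr4:125490446-125490745 (+ strand): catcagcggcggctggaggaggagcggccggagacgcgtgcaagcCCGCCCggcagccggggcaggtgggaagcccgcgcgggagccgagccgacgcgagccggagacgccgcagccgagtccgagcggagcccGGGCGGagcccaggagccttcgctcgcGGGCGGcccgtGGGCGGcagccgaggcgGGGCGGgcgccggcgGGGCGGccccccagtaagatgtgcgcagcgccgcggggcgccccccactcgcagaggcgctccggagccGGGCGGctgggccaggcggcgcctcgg
In these windows Gabra4 starts on the minus strand 387 bases beyond the start of Gabrb1 on the plus strand, so the first bases of the 2 genes overlap on opposite strands. The library kit keeps strand, but whether the counting used it is not given in the sources used here, so reads from the overlap may not be told apart. GC boxes were found in 2 places for Gabra4, in 3 for Grin2c and in 7 for Grik3, and this Gabrb1 window holds none. Of the 24 receptor genes matched, 15 had a GC box in some window, as did 38.2% of the 27025 genes in the table. A match describes letters in the window and is not evidence of a bound factor.

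On the precursor score, 8 of the 30 receptor genes had a called slope, all above 0, beside 2.63% of all genes called and 2.33% called with a slope above 0. The median slope was 0.52, beside 0.01 for all genes. They were 2 of 4 AMPA subunits (Gria3 and Gria2), 2 of 5 kainate subunits (Grik3 and Grik5), 2 of 6 NMDA subunits (Grin3a and Grin1) and 2 of 7 GABA-A subunits (Gabra3 and Gabrg3). No metabotropic, delta or GABA-B gene was called. Gabbr1 had a slope of -0.43 ± 0.17 that did not pass the test (adjusted p = 0.229).

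Grik3, a kainate subunit with low affinity for glutamate, had the largest of these slopes, 1.20 ± 0.16 (adjusted p = 0.00127). It stood at 109, 91.8, 168 and 110.0 CPM in male controls and at 91.1, 90.4, 137 and 115 CPM in female controls. In male BPA the values were 78.3, 89.8, 75.9 and 105 CPM, and in female BPA 107, 150, 102 and 74.7 CPM. The groups overlapped, and the highest libraries, male control 3 and female BPA 2, were the 2 with the highest precursor scores, 6.40 and 6.62.

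Gria3, an AMPA subunit, had the smallest p of the members, with a slope of 0.97 ± 0.11 (adjusted p = 0.000285). Gabra3, the GABA-A alpha subunit common in embryonic and early postnatal brain, had a slope of 1.18 ± 0.22 (adjusted p = 0.00931). Grin1 followed with 1.08 ± 0.21, Gabrg3 with 1.02 ± 0.26, Grin3a with 0.93 ± 0.14, Gria2 with 0.88 ± 0.19 and Grik5 with 0.46 ± 0.11. Grin3a, Gabrg3 and Grik5 were called on both scores. The precursor call of Gabrg3 was lost in 15 of the 16 fits that left out 1 library, with adjusted p from 0.0499 to 0.393.

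Several of these calls rested on single libraries. Leaving out female BPA 2, the library with the highest precursor score, left 3 called genes (Grik3, Gria3 and Grin3a) beside 0.398% of all genes. Leaving out female BPA 4 left 4 (1.25% of all genes), leaving out male control 3 left 5 (1.96%), and leaving out male BPA 2 left 6 (2.23%). Grik3 and Gria3 had slopes of 1.35 ± 0.23 (adjusted p = 0.0249) and 0.92 ± 0.16 (adjusted p = 0.0256) without female BPA 2.

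**Figure D3:**
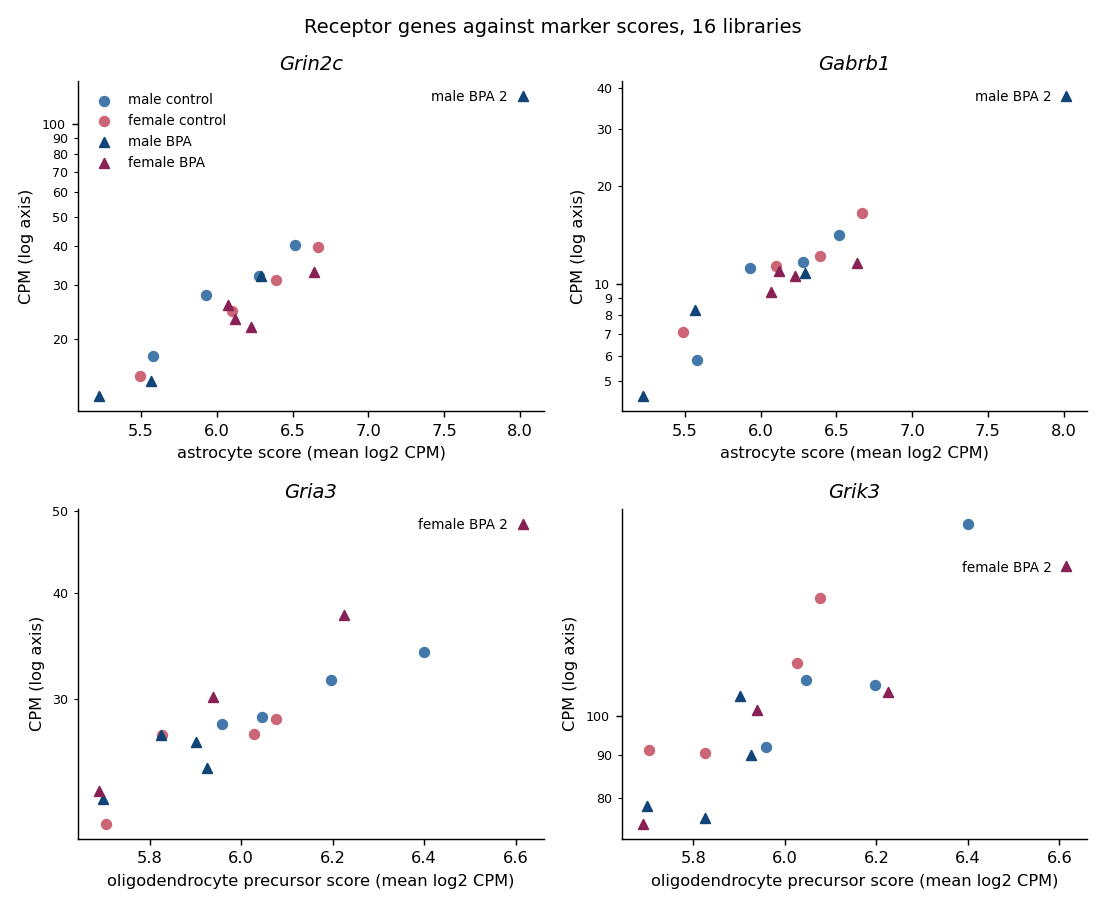
Level (CPM, log axis) of Grin2c and Gabrb1 against the astrocyte score, and of Gria3 and Grik3 against the precursor score, both in mean log2 CPM, 1 point per library. Male BPA 2 lies far to the right at an astrocyte score of 8.02 and female BPA 2 at a precursor score of 6.62. The other libraries lie to the left of them and rise along the same direction. For Grik3, male control 3 (168 CPM) stands above female BPA 2 (150 CPM).

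Neuron markers were low: 11 of 13 were tested, and Syp, the highest by median, stood at 5.4 CPM. The neuron score was fitted by itself. It was called for 12 of 30 receptor genes, all above 0, beside 10.7% of all genes called and 6.55% called with a slope above 0. The largest called slopes were those of Grin2b (3.39 ± 0.53, adjusted p = 0.00768), Grin2c (2.51 ± 0.76, adjusted p = 0.049), Gabrb1 (2.48 ± 0.62, adjusted p = 0.0242) and Gabra4 (2.19 ± 0.48, adjusted p = 0.0151). None was called without male BPA 2, when 0 of all genes were called either and 6 of the 30 had an unadjusted p under 0.05, beside 10.9% of all genes. None was called with all 3 scores in 1 fit, where 11 receptor genes were called on the astrocyte score, beside 5.31% of all genes, and 3 on the precursor score, beside 0.502%. Male BPA 2 had a neuron score of 0.72 and female BPA 2 one of 0.73, the 2 highest of the 16.

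The receptor classes also differed in how male BPA 2 stood against the controls. In that library the NMDA subunits summed to 1270 normalised counts per kb, against 419 ± 74.4 (SD, n = 8) in controls, and the GABA-A subunits to 1226 against 519 ± 86.9. The AMPA subunits summed to 3389 against 3462 ± 368 and the kainate subunits to 4930 against 5038 ± 362, both within 1 SD of the control mean. The GABA-B subunits summed to 22330 against 19090 ± 710, and the metabotropic receptors to 1038 against 788 ± 206, both above it. These sums hide moves of single members. In male BPA 2 Grin2c made up 72% of the NMDA sum, against 49.8% ± 9.1 in controls. Grm3 made up 56.4% of the metabotropic sum, against 20.9% ± 5.7. Within the kainate sum Grik5 made up 70.7%, against 61.6% ± 2.5, and Grik2 19%, against 25.1% ± 2.9. Gria2 made up 71.4% of the AMPA sum, against 71.9% ± 2.3, and Gria1 2.87%, against 1.35% ± 0.39. This is a description of 1 library.

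The comparison of BPA with control asks whether perinatal exposure left a change in these receptors. In males, none of the 30 receptor genes was called, beside 0.00612% of all genes. An unadjusted p under 0.05 was reached by 3, Grik2, Grid1 and Grm5, all lower in BPA, beside 7.96% of all genes. The log2 fold change was below 0 for 21 of 30, with a median of -0.20, beside 0.01 for all genes. All 5 kainate subunits, all 4 AMPA subunits and Grid1 were on the lower side, while of the GABA-A subunits 3 were lower, 3 were higher and Gabra2 stood at 0.00.

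Grik2, a kainate channel subunit, had the smallest p. Its levels were 93.6, 92.9, 88.8 and 104.9 CPM in male controls and 73.2, 71.9, 76.6 and 86.5 CPM in male BPA, with no overlap. The log2 fold change was -0.30 ± 0.08 (fold 0.81, adjusted p = 0.369). In females it was 95.1, 105.5, 86.4 and 101 CPM in controls and 87.7, 95.5, 87.6 and 78.2 CPM in BPA, overlapping, with a log2 fold change of -0.15 ± 0.08 (adjusted p = 0.999). Over both sexes it was -0.23 ± 0.06 (adjusted p = 0.256). Grik2 had a slope near 0 on both scores, 0.11 ± 0.14 on the precursor score and -0.03 ± 0.05 on the astrocyte score, neither called.

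Grid1 was at 43.5, 32.8, 38.7 and 38.8 CPM in male controls and at 25.4, 31.6, 18.8 and 31.8 CPM in male BPA, also without overlap, a log2 fold change of -0.53 ± 0.15 (adjusted p = 0.384). Grm5, which couples to calcium release, was at 24.1, 20.3, 29.5 and 20.9 CPM in male controls and at 12.1, 23.3, 17.5 and 16.8 CPM in male BPA, where male BPA 2 alone overlapped the controls. Its log2 fold change was -0.46 ± 0.17 (adjusted p = 0.517), and that of the kainate subunit Grik4 was -0.31 ± 0.15 (adjusted p = 0.631). Gria3 and Grin1 also lay wholly below the controls in male BPA, which makes 4 of 30 with Grik2 and Grid1, beside 2.83% of all genes, and none lay wholly above.

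Markers moved with this comparison. The precursor score was between 5.96 and 6.40 in male controls and between 5.70 and 5.93 in male BPA, without overlap, and 14 of the 15 precursor markers were on the lower side, none called. The score of 9 markers of committed and newly formed oligodendrocytes did not overlap either, at 8.42 to 8.76 against 8.16 to 8.41. The astrocyte score spanned 5.58 to 6.52 in male controls and 5.22 to 8.02 in male BPA. All 16 astrocyte markers (median 0.21) and all 9 microglia markers (median 0.44) were on the higher side, none called. With the precursor and astrocyte scores as covariates, the median of the receptor genes in males was -0.06, with 21 of 30 still lower. An unadjusted p under 0.05 was reached by 5, beside 7.22% of all genes, none called. Grik2 then stood at -0.27 ± 0.09 (adjusted p = 0.572) and Grid1 at -0.39 ± 0.14 (adjusted p = 0.614).

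Without male BPA 2, 28 of 30 receptor genes were on the lower side in males, with a median of -0.38 beside 0.00 for all genes. An unadjusted p under 0.05 was then reached by 7, beside 11.5% of all genes, and still none was called. All 16 astrocyte markers were then on the lower side, with a median of -0.37, and all 15 precursor markers too, with a median of -0.36, none called. The 9 microglia markers stayed on the higher side, with a median of 0.28. The smallest adjusted p were those of Grid1 (-0.61 ± 0.15, adjusted p = 0.209) and Grm5 (-0.62 ± 0.16, adjusted p = 0.216). Other omissions made the shift smaller: the median was -0.11 without male BPA 3, with 18 of 30 lower, and -0.15 without male BPA 4, with 17 of 30 lower.

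In females, none of the 30 was called, beside 0% of all genes, and 2 had an unadjusted p under 0.05, beside 4.55% of all genes. The median was 0.04, beside 0.00 for all genes, with 18 higher and 12 lower. Both genes were AMPA subunits. Gria4 stood at 93.6, 99.5, 91.0 and 96.4 CPM in female controls and at 105, 122, 99.7 and 111 CPM in female BPA, without overlap, a log2 fold change of 0.20 ± 0.07 (adjusted p = 0.999). It was the only one of the 30 to lie wholly above its controls, beside 1.27% of all genes. Gria3 was at 21.4, 27.2, 28.4 and 27.3 CPM in controls and at 37.7, 48.3, 30.2 and 23.4 CPM in BPA, overlapping, with 0.39 ± 0.16 (adjusted p = 0.999). The highest library of both was female BPA 2, whose precursor score was the highest of all, and all 15 precursor markers were on the higher side in female BPA, none called. With the 2 scores as covariates Gria3 stood at 0.19 ± 0.07 (adjusted p = 0.813), and the median of the receptor genes turned to -0.10, with 22 of 30 lower. Leaving out 1 library moved the median from -0.02 (without female BPA 2) to 0.15 (without female control 4, with 24 of 30 higher), and without female BPA 4 it was 0.14. Grm7, a presynaptic metabotropic receptor, had 0.36 ± 0.21 (adjusted p = 0.999).

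**Figure D4:**
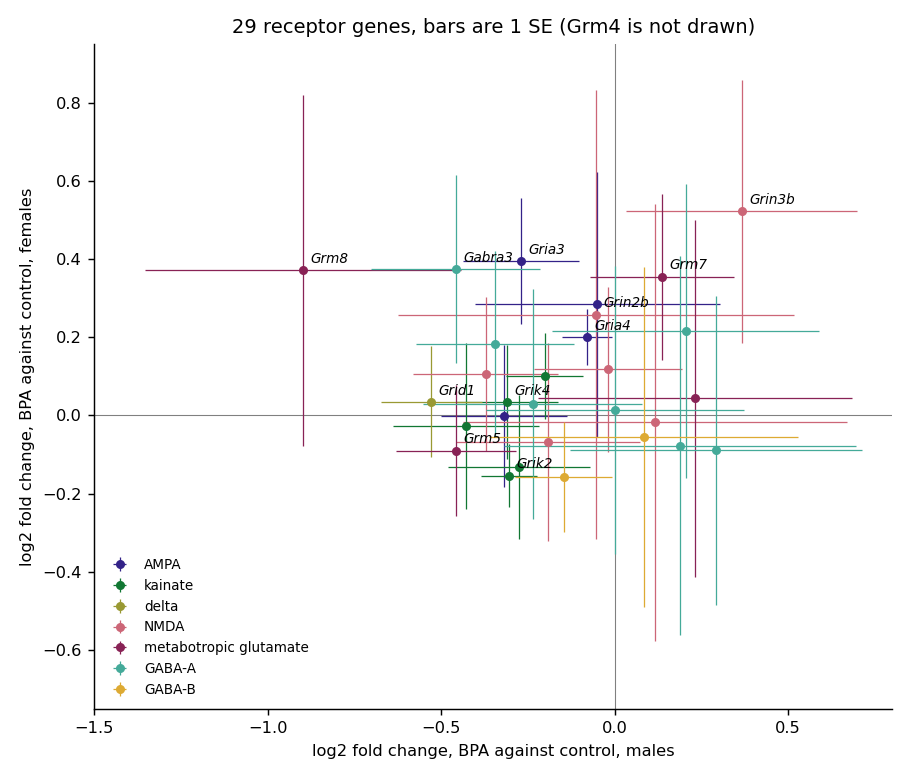
Log2 fold change of BPA against control in females (vertical) against that in males (horizontal) for each receptor gene, with bars of 1 SE, colours for the receptor class and Grm4 not drawn. With Grm4, 21 of 30 genes were below 0 in males and 12 of 30 in females, and no gene was called in either sex.

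Over both sexes, 0 of 30 receptor genes were called, beside 0.0184% of all genes, and 3 had an unadjusted p under 0.05 (Grik2, Grid1 and Grm5), beside 7.69% of all genes. The values were -0.25 ± 0.10 for Grid1 (adjusted p = 0.562), -0.27 ± 0.12 for Grm5 (adjusted p = 0.605) and 0.44 ± 0.24 for Grin3b, a glycine-binding NMDA subunit (adjusted p = 0.713). The median was -0.05, beside 0.00 for all genes, with 16 of 30 lower. It went from -0.17 without male BPA 2, with 25 of 30 lower, to 0.01 without female BPA 4, with 14 of 30 lower, so its direction rested on single libraries. With the precursor and astrocyte scores as covariates it was -0.08, with 23 of 30 lower, and 9 receptor genes had an unadjusted p under 0.05, beside 9.28% of all genes, none called. Grik2 then stood at -0.22 ± 0.06 (adjusted p = 0.194). The 95% confidence interval for Grik2 over both sexes ran from -0.35 to -0.11 before adjustment for the number of genes tested.

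The difference of the effects, females minus males, was above 0 for 23 of 30 receptor genes, with a median of 0.24 beside -0.02 for all genes. None was called, beside 0% of all genes, and 4 had an unadjusted p under 0.05, beside 4.72% of all genes: Gria3 (0.66 ± 0.23), Grid1 (0.56 ± 0.20), Gria4 (0.28 ± 0.10) and Gabra3 (0.83 ± 0.34), each with an adjusted p of 0.999. All 15 precursor markers were above 0 as well, with a median of 0.54 and none called. With the 2 scores as covariates the receptor median was 0.02, with 17 of 30 above 0. Leaving out 1 library moved it from 0.11 (without male BPA 4, with 20 of 30 above 0) to 0.45 (without male BPA 2, with 29 of 30 above 0), and it was 0.13 without female BPA 2 and 0.16 without male BPA 3. Without male BPA 2, 8 receptor genes had an unadjusted p under 0.05, beside 9.32% of all genes, and none was called. All 16 astrocyte markers were then above 0, with a median of 0.50. With male BPA 2, 2 of the 16 were above 0, with a median of -0.11.

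Between the sexes, over both exposures, 0 of 30 were called, beside 0.0673% of all genes, and 0 had an unadjusted p under 0.05, beside 4.35% of all genes. The smallest p were those of Grik1 (0.26 ± 0.14), Grik2 (0.11 ± 0.06), Gabrb2 (-0.27 ± 0.17) and Grm7 (-0.19 ± 0.15), each with an adjusted p of 0.999. The median was -0.01, with 15 of 30 higher in females. Without male BPA 2 it was 0.09, beside 0.00 for all genes, with 23 of 30 higher in females. An unadjusted p under 0.05 was then reached by 2, beside 9.92% of all genes, and still none was called.

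**Figure D5:**
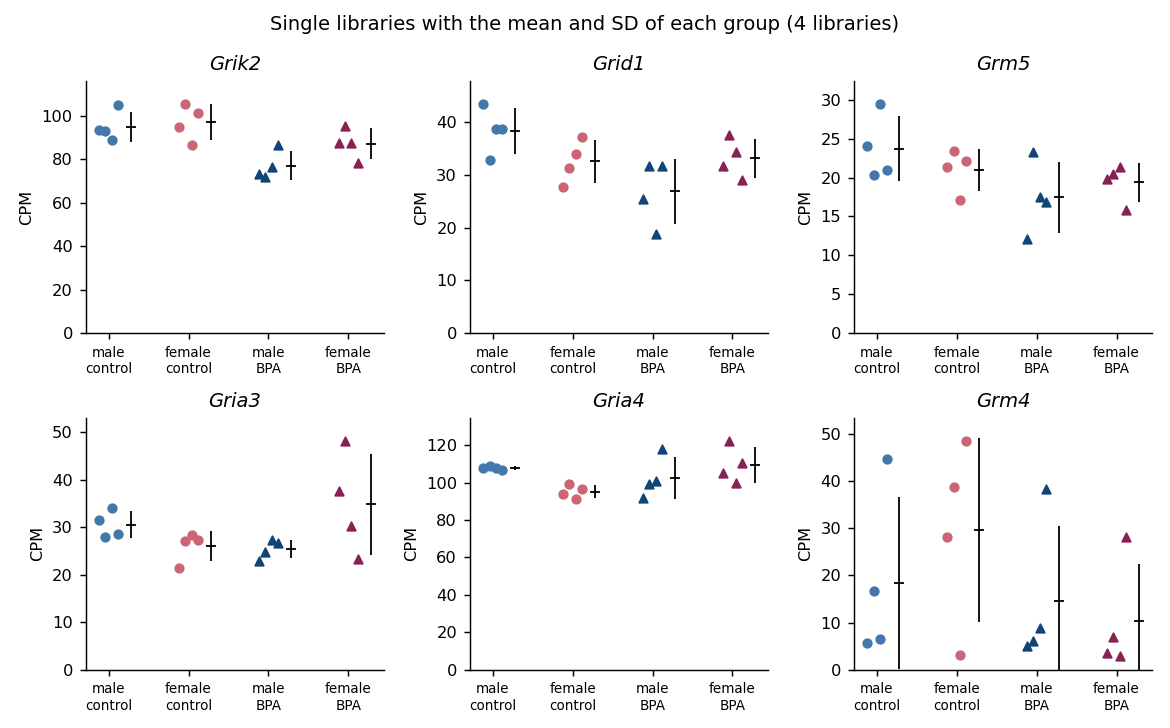
Level (CPM, linear axis from 0) of 6 receptor genes in every library, by group, with the mean and SD of the 4 libraries beside the points. Grik2 and Grid1 are lower in all 4 male BPA libraries than in all 4 male controls, Gria4 is higher in all 4 female BPA libraries than in all 4 female controls, and Grm4 ranges widely in every group, with SD bars cut off at 0.

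Grm4, a metabotropic receptor that inhibits adenylyl cyclase, varied more between libraries than any other tested member, 16.5-fold from 2.95 to 48.6 CPM. In male controls it stood at 5.74, 16.7, 6.61 and 44.7 CPM and in female controls at 28.2, 38.8, 3.04 and 48.6 CPM. In male BPA the values were 4.97, 6.02, 8.81 and 38.4 CPM, and in female BPA 3.64, 6.84, 2.95 and 28.2 CPM. High and low libraries occurred in every group, and the groups overlapped. The lowest library had 118 reads of Grm4 and the highest 2061. Its slopes were -0.12 ± 0.70 on the astrocyte score and -3.32 ± 2.25 on the precursor score, neither called. Its log2 fold change for BPA was the largest in size of the members in females, -1.75 ± 1.09 (adjusted p = 0.999). The same held over both sexes, at -1.05 ± 0.76 (adjusted p = 0.824). In males it was -0.35 ± 1.06 (adjusted p = 0.96).

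Genes that act on these receptors were examined as 2 further lists. Of 33 auxiliary subunits and scaffolds, 30 were tested. None was called for BPA in males, in females or over both sexes, beside 0.00612%, 0% and 0.0184% of all genes. Dlg4, the scaffold PSD-95, had the smallest p over both sexes, with 87.5 ± 2.34 CPM in controls and 96.5 ± 6.29 CPM in BPA (n = 8 each) and a log2 fold change of 0.14 ± 0.04 (adjusted p = 0.285), followed by Dlg3 (0.12 ± 0.05, adjusted p = 0.517). On the precursor score 4 of 30 were called, all above 0, beside 2.63% of all genes: Cacng4, an AMPA receptor auxiliary subunit (1.17 ± 0.08, adjusted p = 1.19e-05), Neto1, which modifies kainate receptors (0.97 ± 0.17), Shisa7, which binds GABA-A receptors (1.19 ± 0.22), and Homer2, a scaffold of group I metabotropic receptors (1.02 ± 0.23). Without female BPA 2 only Cacng4 of these was called, beside 0.398% of all genes. On the astrocyte score 8 of 30 were called, beside 17.3% of all genes, and 6 of them above 0, beside 12.3%, among them Shisa9 (0.70 ± 0.04) and the AMPA receptor auxiliary subunit Cacng8 (0.76 ± 0.06), and below 0 Cnih2 (-0.22 ± 0.05) and Dlg1 (-0.14 ± 0.04). Without male BPA 2, 2 of 30 were called, Shisa9 and Cacng8, beside 3.31% of all genes. Homer2 was at only 3.57 ± 0.44 CPM in controls.

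Of 15 genes for transport and metabolism of the transmitters, 14 were tested. None was called for BPA in males, in females or over both sexes, beside 0.00612%, 0% and 0.0184% of all genes. Glul, glutamine synthetase, had 665 ± 107 CPM in controls and 850 ± 210 CPM in BPA (n = 8 each), with a log2 fold change over both sexes of 0.33 ± 0.13 (adjusted p = 0.535), and the glutamate transporter Slc1a1 had -0.26 ± 0.10 (adjusted p = 0.544). On the astrocyte score 10 of the 14 were called, all above 0, beside 12.3% of all genes, led by the glutamate transporter Slc1a3 (0.88 ± 0.04, adjusted p = 4.14e-10) and the GABA transporter Slc6a11 (1.08 ± 0.06, adjusted p = 1.93e-09). Without male BPA 2, 7 of the 14 were called, all above 0, beside 3.05% of all genes. None was called on the precursor score, beside 2.63% of all genes. The median slope on the astrocyte score was 0.46 for this list and 0.00 for the auxiliary subunits and scaffolds, beside 0.00 for all genes.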

How the data were processed

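Poly(A) RNA of O4-sorted cells was sequenced in 16 libraries. The authors demultiplexed, aligned and counted reads, and normalized the counts, with tools listed in the submitters' processing notes. For the authors' steps these name mm39 as build, STAR 2.5.3a as aligner, HTSeq 0.6.1p1 as counter, DESeq2 1.16.1, and bcl2fastq 2.20.0.422; the counting options are not given in the sources used here. The deposited table, per the labels, holds raw counts, normalized counts and normalized counts divided by the median transcript length in kb; the 16 normalized columns without length were not used. Because the unit check could not parse the table's columns, edgeR was not used, and limma 3.58.1 (R 4.3.3) with voom was the main test.

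Symbols were matched through GENCODE M21 for 31717 of 32207 genes. The low-count filter asked for about 10 counts in at least 4 libraries (1 group) and 15 over all, and the 16339 genes kept hold 99.947% of counts. Libraries were scaled by TMM, re-implemented in R and tested on simulated data with the fits. voom weights, 1 coefficient per group and robust empirical Bayes were used, all tests were two-sided, and scores used log2 CPM with a prior count of 2. Within groups, replicate libraries differed by at least 15.2 chi-square units per gene, so no pair was within sampling noise. Genes with full statistics were those called in a comparison, or the 4 with the smallest p. For slopes they were the called genes with the 4 largest positive and the 4 largest negative slopes. For the 2 further lists they were the genes called or the 2 smallest p over both sexes. Grm4, Gabbr1 and the lists' members beyond this were named after their values were seen. The members, lists and tests were chosen with earlier results of these data known. The dose estimate and the concentration stated for the drinking water could not be reconciled, so the dose is given as the study's estimate only.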

Additional observations from a re-analysis of the deposited data

Results flagged for a closer look

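Within groups of 4 libraries, 13 of 132 tests of a receptor gene or score (9.85%) had 1 library far from the other 3. Chance gives about 1 in 20 for a single test. The 132 tests share the same libraries and are not independent, so whether 9.85% is an excess was not tested. Male BPA 2 accounted for 6 of the 13, all high. In it Grin2b stood at 1.82 CPM (the others at 0.235 to 0.349), Grin3a at 31.1 CPM (14.9 to 16.6), Grm3 at 52.5 CPM (8.49 to 13.8), Gabrg1 at 55.1 CPM (12.6 to 16.1), Gabbr2 at 104 CPM (17 to 25.6) and the neuron score at 0.721 (0.022 to 0.141). The same library had the highest astrocyte score, 8.02.

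Grm4 stood apart in male BPA 4 at 38.4 CPM (the others at 4.97 to 8.81) and in female BPA 4 at 28.2 CPM (2.95 to 6.84). Grik1 was high in female BPA 3 at 17.3 CPM (10.0 to 10.9), Grik4 in male control 3 at 18.6 CPM (13.6 to 14.2) and Gabra2 in female control 4 at 7.21 CPM (3.26 to 3.93). Grin1 was low in male BPA 1 at 3.52 CPM (4.69 to 4.83) and Gabra4 in female BPA 4 at 2.25 CPM (3.41 to 3.45).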

How the results depend on the processing

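The count of receptor genes called stayed at 0 for BPA in males, in females and over both sexes, for the difference between the sexes and for females against males, under median-of-ratios factors, no filter, a stricter filter, the 2 scores as covariates, only 1 sex, limma-trend (added after the data were seen) and with each library left out. With a replicate block these counts were 0 as well. In a check of pairs, 7 of 24 same-number pairs correlated above 0.1 (range -0.24 to 0.23), and 4 of 16 libraries correlated best with their own number. No reference spread was computed, so the check cannot exclude that libraries with equal numbers share a litter or batch.

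On the precursor score there were 8 calls in the main fit, beside 2.63% of all genes. They became 4 with a replicate block (1.12% of all genes) and 4 with each score in a fit of its own (1.22%). With 3 scores in 1 fit they became 3 (0.502%). With 1 library left out they were 3 to 8, the 3 without female BPA 2 (0.398%). On the astrocyte score the 13 calls (17.3% of all genes) became 8 to 14 with 1 library left out, and 8 only without male BPA 2 (3.31%). On the neuron score there were 12 calls in the main fit, beside 10.7% of all genes. They became 7 with no filter (3.04% of all genes), 3 with the stricter filter (8%) and 6 with limma-trend (7.14%). They became 0 with a replicate block and 0 with 3 scores in 1 fit, each beside 0% of all genes. With 1 library left out they were 0 to 12, the 0 without male BPA 2 (0%). The cause of these changes was not tested. The 4 called genes with the largest slopes on each score kept slopes above 0 with each library left out. For the other called slopes the sign was not followed over all settings. DESeq2 and edgeR alternatives were not run. Depth limits Grm8 most among the genes tested, at 3 to 19 counts per library, beside 7 to 73 for Grin2b and 11 to 49 for Grin3b. The counts of the 2 further lists without 1 library were added after the data were seen.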
